A study of Sus scrofa with 20 samples.

Results

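Endothelin-1 and a set of vascular genes were followed through testis and liver of boars that differed in fat androstenone, the testicular steroid behind boar taint. The genes were EDN1, EDNRA, EDNRB, ECE1, NOS3, VEGFA, KDR and VWF. EDN1 was picked because its level separated the androstenone groups in testis, and the others were picked by function, to see whether vascular genes moved with it. Of these 8 genes, 6 had a reference ID among the 21755 IDs counted, and ECE1 and VWF had no matched ID. The EDN1 values in testis therefore chose the set, and their difference between the androstenone groups is described here without a test.

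RNA-Seq was run on 20 samples, from the testis and the liver of 10 entire boars of a Duroc x F2 cross, where F2 came from F1 (Leicoma x German Landrace) animals and Large White. The boars were 116 days old. Each tissue had 5 samples from boars with low and 5 samples from boars with high androstenone in fat, and the labels name no treatment. The groups were extremes selected for androstenone, so other traits that go with that selection cannot be told apart from it.

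Endothelin-1 is a peptide made mainly by the endothelium, the inner lining of vessels, and is cut to its active form by the converting enzyme ECE1. It contracts smooth muscle through the receptor EDNRA, while EDNRB on endothelial cells clears the peptide and triggers release of nitric oxide, which is made by the endothelial synthase NOS3 and relaxes vessels. VEGFA is the main growth factor of vessels and acts through the receptor KDR, and VWF is a clotting protein stored in endothelial cells. Androstenone is made by the Leydig cells, which lie beside the vessels between the tubules of the testis, and is degraded in the liver.

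The testis libraries held 6161397 to 15975386 counts each and the liver libraries 5796973 to 26783002. Levels are counts per 1000000 (CPM) with TMM scaling within a tissue, and 3 counts corresponded to 0.188 to 0.487 CPM in testis and 0.112 to 0.518 CPM in liver. The tissue labels matched their markers. In testis 4 of 4 measured germ cell, 3 of 4 Leydig cell and 3 of 4 Sertoli cell markers were called higher, beside 43.5% of all IDs. In liver 5 of 5 hepatocyte markers were called higher, beside 32.2% of all IDs. Of these markers ZPBP, LHCGR, CLDN11 and WT1 had under 10 counts in liver and passed the count filter only through testis. A gene was called at an adjusted p of 0.05 or less and a fold change of at least 1.5, by the quasi-likelihood test of edgeR over all IDs with 10 or more counts in the fit.

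EDN1 (NM_213882.1) had lower levels in testis of boars with high androstenone, and none of the 4 partners tested there was called between the groups, as for all IDs (0% called). In the low group EDN1 was at 2.94, 2.09, 3.77, 3.86 and 3.00 CPM in replicates 1 to 5. In the high group it was at 0.669, 0.950, 1.73, 0.505 and 0.803 CPM. Every low sample lay above every high sample, and the nearest pair was low replicate 2 and high replicate 3. The group means were 3.13 ± 0.721 CPM (SD, n = 5) and 0.931 ± 0.475 CPM (SD, n = 5), from 179 counts in the low and 47 counts in the high libraries. The log2 fold change of high over low was -1.76 with an SE of 0.33, and it ranged from -2.04 to -1.63 when each library was left out. Groups that do not overlap with the high group lower were found for 1.28% of the 18340 IDs tested in testis.

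The testis libraries fell into a deeper and a shallower class by total counts, which the labels do not explain. That EDN1 lay apart between the androstenone groups inside each class follows from the choice of the gene, and the values are given as a description. Among the deeper libraries the 3 low samples lay at 3.00 to 3.86 CPM and the 2 high samples at 0.669 to 0.950 CPM. Among the shallower libraries the 2 low samples lay at 2.09 to 2.94 CPM and the 3 high samples at 0.505 to 1.73 CPM.

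**Figure D1:**
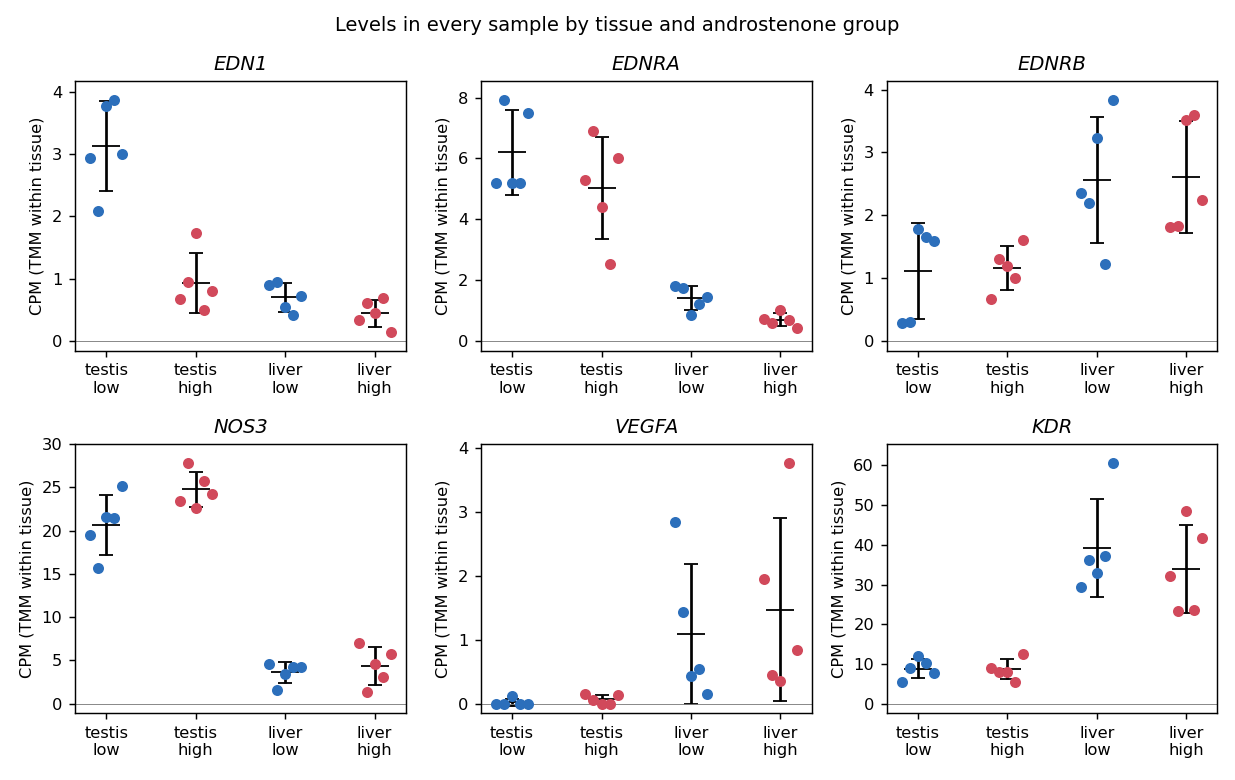
Level of each matched gene in every sample, in CPM on a linear axis from 0, by tissue and androstenone group (blue, low, red, high, 5 samples a group, the horizontal line is the mean and the bar the SD). CPM was scaled within each tissue, so levels are not to be compared between tissues. In testis EDN1 lies at 2.09 to 3.86 CPM in the low and 0.505 to 1.73 CPM in the high group, while the groups overlap for the other genes.

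In liver EDN1 had 1 to 19 counts in each library. Its levels were 0.904, 0.947, 0.539, 0.411 and 0.718 CPM in the low group and 0.337, 0.609, 0.452, 0.685 and 0.141 CPM in the high group. The high samples tended to the lower end but the groups overlapped, and the 2 groups rested on 49 and 23 counts. High over low, EDN1 in liver had a log2 fold change of -0.73 (SE 0.47), with an adjusted p of 0.9999 in edgeR and an exact permutation p of 0.119 (two-sided, 0.397 after adjustment over the 10 exact tests of these genes in both tissues). The 95% interval of the log2 fold change ran from -1.81 to 0.36, which includes 0.

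EDNRA (NM_214229.1), the receptor through which endothelin-1 contracts smooth muscle, overlapped between the groups in testis. Its levels were 5.18, 7.91, 5.19, 5.20 and 7.50 CPM in the low group and 5.28, 6.89, 4.39, 2.52 and 6.03 CPM in the high group. Only 2 high samples, replicates 3 and 4, lay below the low range. Its log2 fold change was -0.27 (SE 0.26, adjusted p = 0.756 in edgeR, 95% interval -0.88 to 0.33).

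In liver EDNRA lay lower in the high group in nearly every sample, without passing the test. It was at 1.81, 1.74, 0.862, 1.23 and 1.44 CPM in the low group. In the high group it was at 0.741, 0.609, 1.01, 0.685 and 0.423 CPM. The groups overlapped through a single pair, since low replicate 3 lay below high replicate 3. The means were 1.42 ± 0.388 CPM and 0.692 ± 0.212 CPM (SD, n = 5 each), from 96 and 42 counts. EDNRA thus had a log2 fold change of -0.99 (SE 0.37) in liver, and the edgeR p was 0.0190 before and 0.9999 after adjustment over all IDs. The exact permutation p was 0.0159 and 0.159 after adjustment over the 10 exact tests. Unadjusted p-values under 0.05 were found for 2.93% of all 15855 IDs tested in liver, and for EDNRA alone among the 6 genes. The log2 fold change stayed between -1.19 and -0.86 when each library was left out. Inside both depth classes of the liver libraries, with 2 or 3 samples a group, EDNRA did not overlap between the groups. The shallower high samples held only 3 or 4 counts each, and EDN1 and NOS3 did not overlap in the deeper class either. The share of all IDs that separate in such small classes was not counted, so this is a description.

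EDNRB (NM_001038002.1), the receptor that clears endothelin-1, covered overlapping ranges in the testis groups. It was at 0.280, 0.299, 1.79, 1.65 and 1.59 CPM in the low group and 0.669, 1.31, 1.20, 1.01 and 1.61 CPM in the high group. The 2 lowest values belonged to low replicates 1 and 2, the shallower low libraries, with 2 counts each. EDNRB had a log2 fold change of -0.08 (SE 0.45, adjusted p = 0.972 in edgeR, 95% interval -1.12 to 0.96). The direction differed between the depth classes. Among the deeper libraries the 3 low samples lay above the 2 high samples (1.59 to 1.79 against 0.669 to 1.31 CPM). Among the shallower libraries the 2 low samples lay below the 3 high samples (0.280 to 0.299 against 1.01 to 1.61 CPM). A part of depth in this was not tested.

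In liver EDNRB was at 2.36, 2.19, 3.23, 1.23 and 3.83 CPM in the low and 1.82, 1.83, 3.52, 3.60 and 2.25 CPM in the high group. The high samples lay inside the wider range of the low samples. Its log2 fold change was 0.01 (SE 0.36, adjusted p = 0.9999 in edgeR, 95% interval -0.82 to 0.85).

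NOS3 (NM_214295.1), the endothelial nitric oxide synthase, rested on 2438 counts over the 10 testis libraries and had a positive log2 fold change there. It was at 19.5, 15.7, 21.6, 21.4 and 25.2 CPM in the low and 23.4, 27.8, 22.6, 25.7 and 24.2 CPM in the high group. All but 1 of the low samples lay below the whole high group, and low replicate 5 lay within it. The means were 20.7 ± 3.49 and 24.7 ± 2.06 CPM (SD, n = 5 each) and the log2 fold change was 0.26 (SE 0.16, adjusted p = 0.636 in edgeR, 95% interval -0.12 to 0.63). The exact permutation p was 0.0476 and 0.238 after adjustment, so the difference did not pass.

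In liver NOS3 was at 4.59, 1.64, 3.45, 4.24 and 4.23 CPM in the low and 7.0, 1.37, 4.62, 3.08 and 5.78 CPM in the high group. The high samples held both the highest and the lowest value. Here the log2 fold change of NOS3 was 0.29 (SE 0.41, adjusted p = 0.9999 in edgeR, 95% interval -0.65 to 1.24).

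VEGFA (NM_214084.1), the vessel growth factor, was close to the limit of detection in testis and was not tested there. It had 2 counts in the low group, both in replicate 3 (0.124 CPM), and 4 counts in the high group, in replicates 1, 2 and 5 (0.149, 0.0594 and 0.134 CPM). The other 6 testis libraries had none, which allows up to 3 counts each.

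In liver VEGFA varied more between boars than between groups. It was at 2.85, 1.44, 0.431, 0.548 and 0.160 CPM in the low and 1.95, 0.457, 0.352, 3.77 and 0.845 CPM in the high group. The groups overlapped almost entirely, and single libraries, low replicate 1 and high replicate 4, made up 52.5% and 51.1% of the CPM summed over their groups. The log2 fold change was 0.33 (SE 0.73, adjusted p = 0.9999 in edgeR, 95% interval -1.35 to 2.00). It was 1.05 without low replicate 1 and -0.29 without high replicate 4.

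KDR (XM_003128987.1), the receptor of VEGFA on endothelial cells, gave no difference beyond its spread. In testis it was at 5.46, 8.96, 11.9, 10.3 and 7.67 CPM in the low and 9.08, 8.07, 8.11, 5.55 and 12.6 CPM in the high group. In liver it was at 29.5, 36.3, 32.9, 37.1 and 60.6 CPM in the low and 32.2, 23.4, 48.5, 23.5 and 41.6 CPM in the high group. The groups overlapped in both tissues. For KDR the log2 fold change was -0.04 in testis (SE 0.25, adjusted p = 0.974 in edgeR, 95% interval -0.61 to 0.53) and -0.21 in liver (SE 0.29, adjusted p = 0.9999, 95% interval -0.89 to 0.47).

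**Figure D2:**
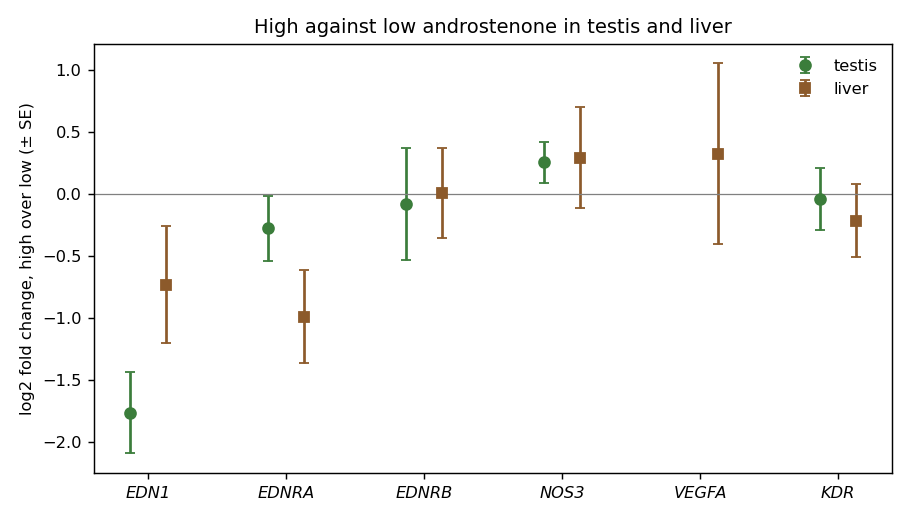
Log2 fold change of high over low androstenone for each matched gene, in testis (circles) and liver (squares), with bars of 1 SE. EDN1 lies at -1.76 in testis and EDNRA at -0.99 in liver, and VEGFA has no testis value because it was not tested.

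None of the 4 genes tested in testis and none of the 6 tested in liver was called between the androstenone groups. In edgeR 0% of all IDs were called in either tissue. At an unadjusted p under 0.05, edgeR gave 1741 IDs in testis (9.49%) and 465 in liver, among them none of the 4 genes in testis and EDNRA in liver. DESeq2 called 52 IDs in testis and 0 in liver, and none of the genes tested here. Whether the androstenone difference itself differed between tissues was tested for the 5 genes other than EDN1, of which VEGFA had only 6 counts in testis. None was called, against 0% of all 19065 IDs, of which edgeR gave 890 an unadjusted p under 0.05 (4.67%) and DESeq2 called 2, and the smallest unadjusted p was that of EDNRA (0.0996, testis minus liver 0.78 on the log2 scale, SE 0.46).

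To see whether the other genes followed EDN1 from boar to boar, each log2 level in testis was set against its group mean, which removes the group difference. Over the 10 testis samples EDNRB went most with EDN1 (Pearson r = 0.519, permutation p = 0.084, adjusted over the 4 relations 0.336, Spearman rho = 0.612, permutation p = 0.0609, adjusted 0.244). KDR had r = 0.286 (permutation p = 0.445, adjusted 0.691, rho = 0.164, p = 0.669, adjusted 0.775) and NOS3 r = 0.220 (permutation p = 0.518, adjusted 0.691, rho = 0.358, p = 0.330, adjusted 0.660). EDNRA had r = -0.004 (permutation p = 0.991, adjusted 0.991, rho = -0.115, p = 0.775, adjusted 0.775). Without the 2 samples farthest from the median of EDN1, which were high replicates 1 and 4, r was 0.482 for EDNRB, 0.017 for KDR, 0.293 for NOS3 and -0.818 for EDNRA. No relation passed the test, and r of EDNRA moved from -0.004 to -0.818 when those 2 samples were left out. Across the 4552 IDs with a symbol and at least 1 CPM in testis, r with EDN1 had a median of 0.038 and a range from -0.54 to 0.554 between the 5th and 95th percentile, so all 4 genes lay inside that range.

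The 5 genes with the highest r with EDN1 over these 10 samples were LITAF (0.850), TMEM167B (0.844), SLCO2A1 (0.839), CD83 (0.838) and TRAF3IP2 (0.832). SLCO2A1 is a prostaglandin transporter and CD83 is a surface protein of activated dendritic cells and lymphocytes. They are the top of 4552 values, and no p is given for r. None of them had the group difference of EDN1: LITAF was at 45.3 ± 10.9 CPM in the low and 48.3 ± 19.8 CPM in the high group, SLCO2A1 at 2.11 ± 0.851 and 1.91 ± 0.939 CPM, and CD83 at 4.6 ± 1.12 and 8.14 ± 2.94 CPM (SD, n = 5 each). CD83 thus leaned opposite to EDN1, with a log2 fold change of 0.81 (unadjusted p = 0.00782, adjusted p = 0.399 in edgeR).

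Around the endothelin genes, 13 IDs of 12 genes for vessel tone were measured, out of 23 genes listed. None was called between the groups in either tissue, and 1 of 13 had an unadjusted p under 0.05 in testis. That gene was ADM, the vessel-relaxing peptide adrenomedullin, at 0.199 ± 0.095 CPM in the low and 0.516 ± 0.222 CPM in the high group (SD, n = 5 each, log2 fold change 1.36, SE 0.50, unadjusted p = 0.0157, adjusted p = 0.437 in edgeR). Its levels lay near the value of 3 counts. GUCY1A3 and GUCY1B3, the subunits of the nitric oxide receptor, had log2 fold changes of -0.50 (SE 0.35) and -0.51 (SE 0.33) in testis, and CAV1, the caveolin that holds NOS3 at the membrane, -0.36 (SE 0.30). The median over the 13 IDs was -0.01, beside -0.02 over all IDs tested.

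Of 9 measured VEGF and angiopoietin genes, out of 15 listed, none was called and none had an unadjusted p under 0.05 in either tissue. The lowest p in testis was that of FLT1, the other VEGF receptor, at 31.3 ± 7.03 CPM in the low and 41.0 ± 5.29 CPM in the high group (SD, n = 5 each, log2 fold change 0.38, SE 0.18, adjusted p = 0.533 in edgeR). HIF1A, which senses low oxygen, had a log2 fold change of -0.35 (SE 0.21) and the ligand VEGFB -0.38 (SE 0.30). The median over the 9 genes was -0.13 in testis and -0.23 in liver.

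**Figure D3:**
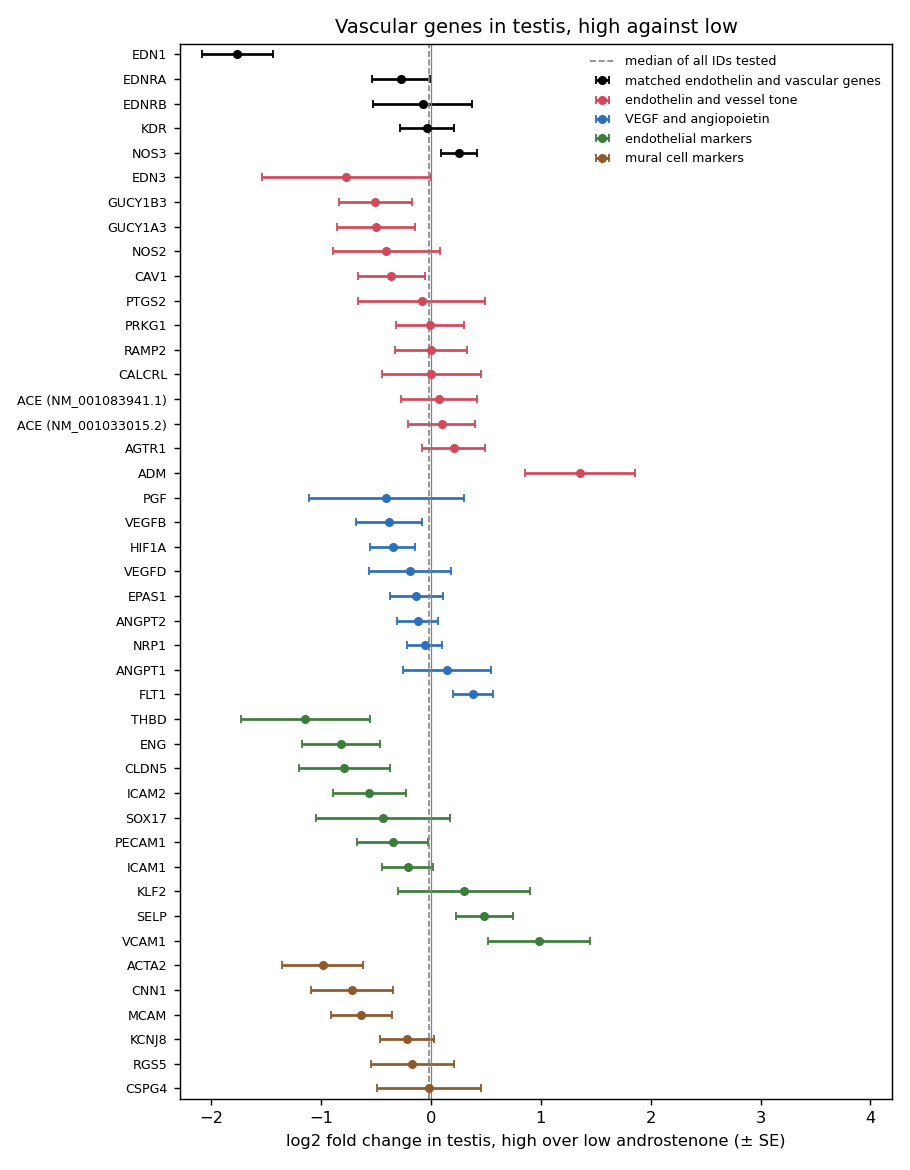
Log2 fold change of high over low androstenone in testis, with bars of 1 SE, for the matched genes and 38 further IDs of 4 vascular lists; the dashed line is the median of all IDs tested (-0.02). EDN1 has the lowest value at -1.76, ADM the highest at 1.36, and the 6 mural cell markers all lie below 0.

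Markers of the cells that make up vessels were set beside EDN1, since in bulk tissue fewer cells of a type and less RNA per cell cannot be told apart. Of 26 endothelial markers listed, 11 were found and 10 tested in testis. None was called, 7 had a negative and 3 a positive log2 fold change, and the median was -0.39. ENG, a co-receptor on endothelial cells, ran from 4.90 to 19.2 CPM in the low and from 3.36 to 7.59 CPM in the high group (log2 fold change -0.82, SE 0.36, unadjusted p = 0.0366, adjusted p = 0.489 in edgeR). VCAM1, an adhesion protein, leaned the other way at 0.98 (SE 0.47), and PECAM1, a junction protein of endothelial cells, had -0.35 (SE 0.32). The listed marker SELE stood at under 10 counts over the testis libraries, and no endothelial marker was at 0 in all of them.

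Summed over the 11 endothelial IDs, the level overlapped between the testis groups, from 49.7 to 165 CPM (median 105) in the low and from 67.6 to 158 CPM (median 90.9) in the high group. As a share of that sum EDN1 stood at 5.92, 2.60, 2.77, 3.68 and 1.82% in the low and 0.990, 1.04, 1.09, 0.703 and 0.643% in the high samples. The low samples again had the higher values, as a description, since these are the EDN1 values that chose the gene. The share in liver overlapped, at 0.265 to 0.623% in the low and 0.117 to 0.549% in the high group.

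**Figure D4:**
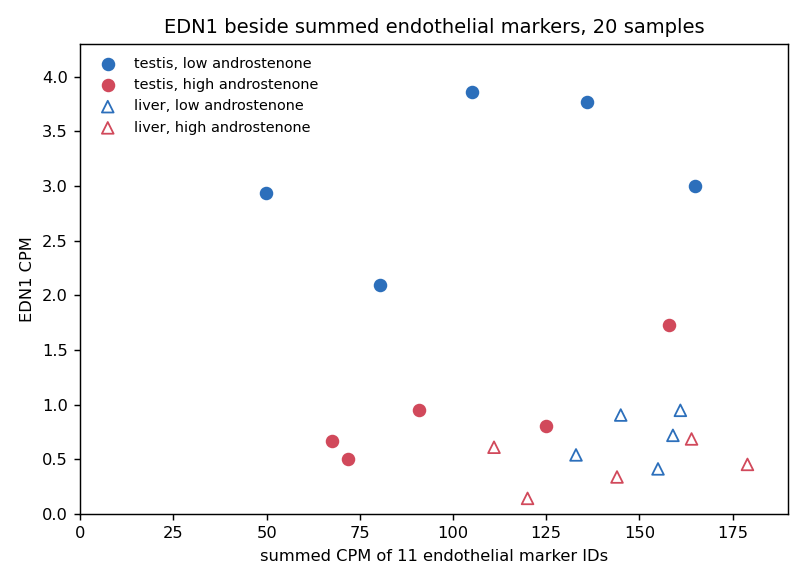
EDN1 level against the summed level of 11 endothelial marker IDs, both in CPM on linear axes, in the 20 samples (filled circles, testis, open triangles, liver, blue, low, red, high). Both axes were scaled within each tissue, so positions are not to be compared between testis and liver. The testis groups overlap along the endothelial axis (49.7 to 165 CPM in the low and 67.6 to 158 CPM in the high group), and their separation along the EDN1 axis is the one that chose the gene.

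Of 12 mural cell markers listed, which mark smooth muscle cells and pericytes, 6 were measured. None was called in testis, all 6 had a negative log2 fold change there with a median of -0.43, and 2 had an unadjusted p under 0.05. ACTA2, the smooth muscle actin, was at 420 ± 197 CPM in the low and 212 ± 109 CPM in the high group (SD, n = 5 each, log2 fold change -0.99, SE 0.37, unadjusted p = 0.0176, adjusted p = 0.441 in edgeR). MCAM had a log2 fold change of -0.63 (SE 0.28, unadjusted p = 0.0389, adjusted p = 0.490). Unadjusted p-values under 0.05 with the high group lower were found for 6.31% of all IDs in testis. The summed mural level ran from 243 to 876 CPM (median 517) in the low and from 132 to 504 CPM (median 332) in the high group. ACTA2 alone made up 74.7% of this sum in testis, so the sum mostly restates ACTA2. Whether the cells behind it belong to vessels was not tested. In liver 3 of the 6 had a negative and 3 a positive value, with a median of 0.12.

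Blood cell markers had lower fitted values in the high group in testis, without passing the test. Of the 13 blood IDs found, 7 of them near-identical alpha-globin IDs that may share reads, 11 were tested. All 11 had a negative log2 fold change with a median of -1.93, 10 had an unadjusted p under 0.05, and none was called. Hemoglobin beta (HBB) was at 157 ± 132 CPM in the low and 47.8 ± 18.4 CPM in the high group (SD, n = 5 each, log2 fold change -1.71, SE 0.52, adjusted p = 0.354 in edgeR), and low replicate 4 made up 44.9% of the sum over its group. The summed blood level was 189, 629, 167, 1530 and 644 CPM in low replicates 1 to 5 and 148, 218, 226, 74.3 and 183 CPM in the high group. Low replicates 1 and 3 lay inside the high range, and the other 3 low samples above it. The platelet marker PPBP had no count in testis. Macrophage markers were summed at 4.06 to 16.7 CPM in the low and 6.22 to 9.60 CPM in the high group, with CSF1R and AIF1 at unadjusted p-values of 0.0368 and 0.0482 and adjusted p-values of 0.489 and 0.524 in edgeR. The part of blood and macrophages in the EDN1 values was not tested.

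In liver the same lists gave no unadjusted p under 0.05. Of 11 endothelial markers 10 had a negative log2 fold change, with a median of -0.30 beside 0.01 over all IDs. The endothelial sum there ran from 133 to 161 CPM in the low and 111 to 179 CPM in the high group. The summed blood level ran from 1440 to 7420 CPM in the low and 941 to 10100 CPM in the high group, beside which EDNRA had the values given above.

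The tissues differed far more than the androstenone groups. For this comparison all 20 libraries were scaled together. The median log2 fold change of testis over liver over all 19065 IDs was 0.31, and 75.7% of the IDs were called, 43.5% higher and 32.2% lower in testis. Of the 5 genes with 10 or more counts in each tissue 3 were called higher and 2 lower, and 3 of 5 did not overlap between the tissues, beside 42.8% of all IDs. The 3 called higher were EDNRA, NOS3 and EDN1. The testis values of EDN1 chose the set, and its call was lost under several settings given below.

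The ligand EDN1 stood at 1.44 ± 0.908 CPM in testis and 0.817 ± 0.386 CPM in liver (SD, n = 10 each). Its log2 fold change was 0.61 (SE 0.28, adjusted p = 0.0479 in edgeR), or 0.30 relative to the median of all IDs, and the tissues overlapped. The androstenone groups entered it unequally: EDN1 stood at 2.21 ± 0.499 CPM in testis and 1.02 ± 0.380 CPM in liver of the low group, and at 0.670 ± 0.345 CPM and 0.610 ± 0.288 CPM in the high group (SD, n = 5 each). The testis values are also those that chose the gene. The call was lost without the filter on low counts (adjusted p = 0.0545), with a stricter filter (0.0637), with IDs of one symbol summed (0.0503), with a replicate block (0.0851) and when any of 13 of the 20 libraries was left out. The adjusted p reached 0.130 without testis high replicate 3, whose EDN1 level was the highest of its group, and the log2 fold change ranged from 0.46 to 0.69 over the libraries left out. It held in DESeq2 (0.0323) and with RLE factors (0.0290).

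The receptors took opposite sides. EDNRA rose in testis, with 4.00 ± 1.15 CPM against 1.51 ± 0.759 CPM in liver (SD, n = 10 each, log2 fold change 1.45, SE 0.23, adjusted p = 3.35e-06 in edgeR). EDNRB was lower there, with 0.813 ± 0.400 CPM against 3.63 ± 1.24 CPM (log2 fold change -2.11, SE 0.30, adjusted p = 5.68e-07), and the highest testis sample (1.28 CPM) lay below the lowest liver sample (1.71 CPM). NOS3 was higher in testis, with 16.2 ± 2.58 CPM against 5.62 ± 2.45 CPM (log2 fold change 1.51, SE 0.22, adjusted p = 1.12e-06), and the tissues did not overlap, the lowest testis sample being at 11.2 CPM.

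VEGFA reached at most 0.106 CPM in testis and ran from 0.226 to 4.94 CPM in liver, where its mean was 1.81 ± 1.7 CPM (SD, n = 10). It had 6 counts in testis and 147 in liver and passed the count filter only through liver, so its levels are a description and no fold change is given. KDR was lower in testis, at 6.26 ± 1.7 CPM against 51.5 ± 16.6 CPM in liver (SD, n = 10 each, log2 fold change -3.03, SE 0.21, adjusted p = 9.86e-13), and the tissues did not overlap (3.79 to 9.02 against 30.7 to 86.0 CPM). Relative to the median of all IDs the log2 fold changes of EDNRA, EDNRB, NOS3 and KDR were 1.14, -2.42, 1.20 and -3.34, so none of the directions turned.

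Other genes of these pathways also lay on both sides. Of the 13 vessel tone IDs 5 were called higher and 7 lower in testis, and of the 9 VEGF and angiopoietin genes 4 were called higher and 2 lower. EDN3, one of the vessel tone IDs called higher, had under 10 counts in liver. FLT1 was higher in testis (log2 fold change 1.19, adjusted p = 9.58e-07 in edgeR) while KDR, the other VEGFA receptor, was lower. VEGFB was lower in testis (-3.44, adjusted p = 1.29e-11), as was ADM (-3.13, adjusted p = 2.18e-09). The largest differences on the lists, named here after their values were seen, were those of ACE, the angiotensin-converting enzyme, of which germ cells make their own form: its IDs NM_001033015.2 and NM_001083941.1, which may share reads, had log2 fold changes of 7.07 and 6.78. Of 11 endothelial markers 6 were called lower, among them SELE with under 10 counts in testis, and 1 (SELP) higher, and of 6 mural cell markers 3 were called higher and 1 (CSPG4) lower. Share and activity of these cells in the tissues cannot be told apart.

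**Figure D5:**
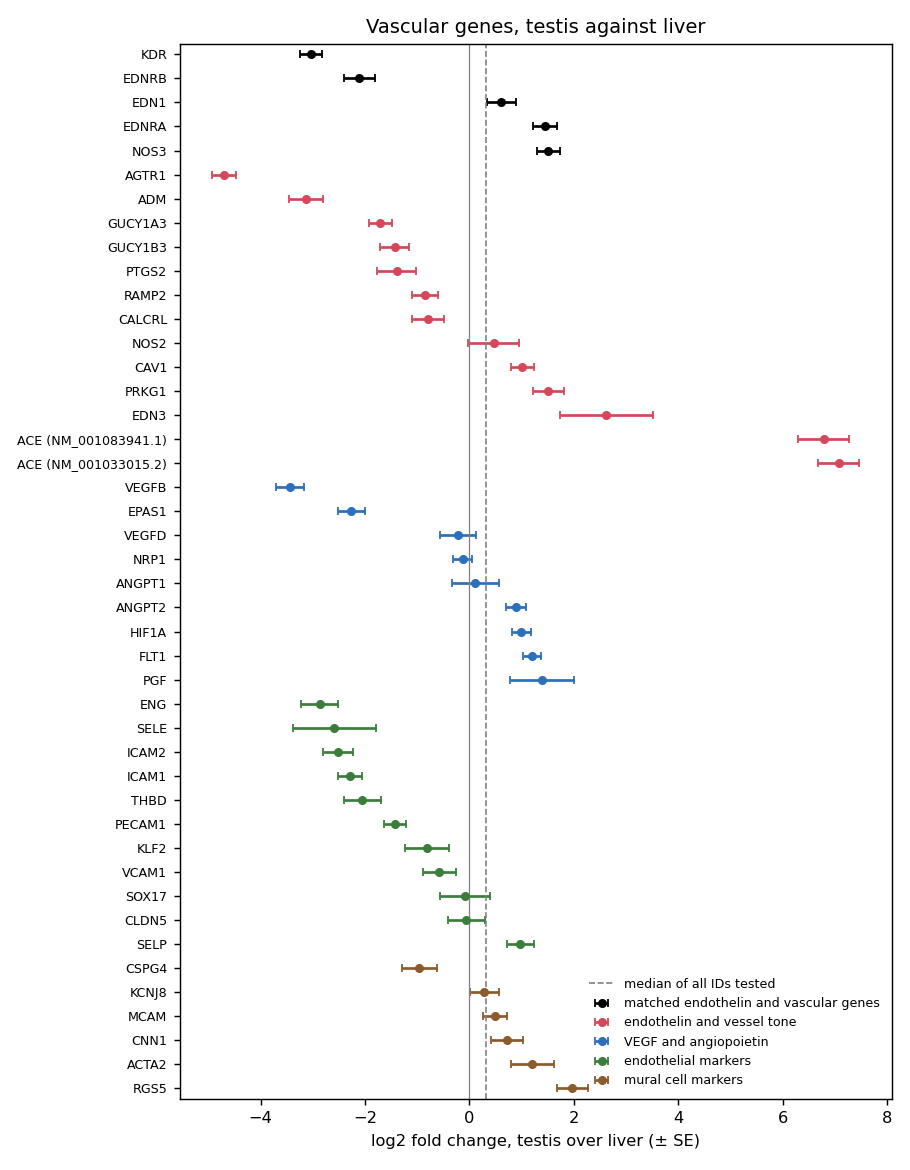
Log2 fold change of testis over liver, with bars of 1 SE, for the 5 genes with 10 or more counts in each tissue and 39 further IDs of 4 vascular lists; the dashed line is the median of all IDs tested (0.31). EDNRA and NOS3 lie to the right at 1.45 and 1.51, EDNRB and KDR to the left at -2.11 and -3.03, and most endothelial markers lie below 0.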

How the data were processed

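Libraries of amplified cDNA from the 20 samples were sequenced as single reads of 100 bp, with 1 lane a sample. Per the submitters' processing notes CASAVA 1.7, BWA and SAMtools were used. The authors mapped the reads to RefSeq mRNA and UniGene transcripts of pig and deposited raw counts per reference ID, one file a sample. How counts were made from alignments, how reads with several matches were treated and whether strand was used are not given in the sources used here, so counts of near-identical IDs may share reads.

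Of 21785 lines a file, 21755 were distinct IDs, because 10 IDs were listed more than once and were used once. Symbols were joined from a RefSeq table by accession without version (6654 IDs), and 9 hemoglobin IDs were named from the study. No coordinates are given, since the table uses another assembly. Groups came from the sample titles, and 0 columns of other samples were present.

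Counts were tested with the quasi-likelihood test of edgeR 4.0.16 in R 4.3.3 (TMM, IDs with at least 10 summed counts in the fit, Benjamini-Hochberg over all IDs), with the thresholds of the study (adjusted p of 0.05 and fold change of 1.5) but without its additional GLM criterion. Testis and liver were fitted separately, and testis against liver in 1 fit of 20 samples. The count test of the study was replaced by edgeR, and DESeq2 1.42.0 was an alternative. Single genes were also tested with an exact two-sided permutation test on log2(CPM + 0.5), whose smallest p for 5 against 5 is 0.00794, and relations with EDN1 with 100000 permutations within groups. Intervals use 8 residual degrees of freedom. A floor of 3 counts covers counting error only. The edgeR script was tested on simulated counts.

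Alternatives were RLE factors, other count filters, summed IDs, no hemoglobin IDs, library size class, a replicate block, a single fit and leaving out each library. From each list (vessel tone, VEGF and angiopoietin, endothelial, mural, blood, macrophage, Leydig, Sertoli, germ cell and hepatocyte markers), up to 3 genes with the smallest p in testis and the gene with the highest CPM could be named. The 5 IDs most like EDN1 were named among IDs with a testis mean of 1 CPM or more. The genes and lists were chosen with earlier results of these data known. Transcript lengths were not used, so levels of different genes were not ranked, and EDN1 as a share of the endothelial sum is to be read only between samples. The samples of a group came from different boars, and which testis and liver came from the same boar is not given by the labels.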

Additional observations from a re-analysis of the deposited data

Results flagged for a closer look

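In 24 groups of 5 samples (6 genes in 4 groups each), 1 sample stood far from the others. For VEGFA in testis, low replicate 3 was at 0.124 CPM, from 2 counts, while the other 4 low samples had no count. For normally distributed values chance alone puts about 1 in 20 such groups past this limit. With 4 samples at no count, any count in the other sample passes it, so that rate does not hold for this flag.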

How the results depend on the processing

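Calls between the androstenone groups changed in number with the tool: DESeq2 called 52 IDs in testis (0 in edgeR) and 2 IDs for the difference between tissues (0 in edgeR), and the cause was not tested. Leaving out each library gave 0 to 2 called IDs in testis, with 2 without testis low replicate 5, 0 in liver, 0 for the difference between tissues and 14270 to 14434 between tissues. Whether same-numbered testis and liver libraries share a boar was left undecided, since tissues of 1 boar need not deviate together. Their deviations had mean correlations of 0.0636 (low androstenone, minimum -0.0249) and 0.146 (high androstenone, minimum -0.0438). The same number was the best match for 2 libraries per androstenone group. Same-numbered low and high libraries, which are different boars, had means of 0.0774 (testis) and 0.0194 (liver), with 1 best match per tissue. With the replicate block 0, 0, 14201 and 0 IDs were called in testis, in liver, between tissues and for the difference between tissues, and the block ended the call of EDN1 between tissues (adjusted p = 0.0851).

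Directions turned for results that had not passed a test. EDNRB in testis was 0.19 with library size class as a covariate and 0.17 with the replicate block, and KDR in testis 0.019 with size class (0.006 for its mean difference with CPM by total counts). EDNRB in liver was -0.0511 in the single fit of 20 samples. The EDNRB difference between tissues was -0.0062 with RLE factors and -0.0074 in DESeq2, and r of EDNRA with EDN1 was 0.071 with CPM by total counts. With each library left out, the log2 fold change crossed 0 for EDNRB (-0.28 to 0.15) and KDR (-0.19 to 0.10) in testis and for EDNRB (-0.15 to 0.20) and VEGFA (-0.29 to 1.05) in liver. The difference between tissues ranged from -0.20 to 0.23 for EDNRB, -0.063 to 2.35 for VEGFA and -0.19 to 0.29 for NOS3. Mean log2 differences ranged from -0.058 to 0.33 (EDNRB) and -0.181 to 0.11 (KDR) in testis and from -0.154 to 0.177 (EDNRB), -0.072 to 0.455 (NOS3) and -0.057 to 0.623 (VEGFA) in liver, and r from -0.683 to 0.197 (EDNRA) and -0.276 to 0.617 (NOS3). Leaving out 1 library ended the call of EDN1 between tissues for 13 of 20 libraries (testis low replicates 1, 3, 4 and 5 and high replicates 2, 3 and 5, liver low replicates 3, 4 and 5 and high replicates 1, 3 and 5), with adjusted p-values from 0.0515 to 0.130, and no other call. Of the values for single genes, 219 under other settings and 427 with a library left out counted as unchanged. Beside these, 8 and 50 turned direction, and 4 and 13 lost a call. Unchanged meant the same direction and side of the threshold. For EDN1 in testis and its difference between tissues, which had no test, it meant the same direction and a shift smaller than the SD between replicates. Counts were fewest for EDN1 and EDNRA in liver and EDNRB and VEGFA in testis.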
